A study of Homo sapiens with 4 samples.

Results

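The genes described here are 10 transcriptional targets of the tumour suppressor p53, chosen by name: MDM2, CDKN1A, TNFRSF10B, TRIAP1, TP53I3, DDB2, FAS, GADD45A, GDF15 and SESN1. Their transcripts were measured in MDA-LM2, human breast cancer cells selected for spread to the lung, harvested 48 h after RNA was delivered with Lipofectamin 2000. The transfected RNA was capped and polyadenylated in both groups and held either tandem sRSE elements, the decoy, or a scrambled sequence. Each group had 2 samples, 1 Illumina expression beadchip each, and both groups share the cell line, the transfection reagent and the time point, with no untransfected sample. The labels do not say that replicates were separate cultures, so a p-value here speaks only of the variation among these 4 samples, and that variation may be technical.

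Of the 10 genes, 8 could be linked to 1 or 2 array probes, 10 probes in all, and 5 had a probe above background. Those 5 genes stand among 13889 probes, covering 6480 named genes, that were tested. A probe was taken as above background where its detection p-value, the share of control probes that are as bright, was under 0.01 on at least 2 of the 4 arrays. MDM2 and GADD45A could not be linked to a probe and were not analysed on the arrays.

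p53 is a transcription factor that becomes stable after DNA damage and other stress, binds a paired motif in or near its target genes, and raises transcripts that halt the cell cycle, repair DNA or start cell death. One of its targets, MDM2, is the ubiquitin ligase that degrades p53, which closes a feedback loop. Many targets also answer to other transcription factors, so their levels do not read p53 alone.

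The promoter letters of the members are shown first because p53 acts on its targets through a DNA motif, although the members were chosen by name and not by that motif. RefSeq promoter windows of GRCh38.p14, each from 250 bases before to 50 bases after an annotated transcript start, were available for 8 member genes in 16 windows. They were searched on both strands for the p53 consensus half-site, a motif of 10 bases that is its own reverse complement, and for full sites, a pair of half-sites with 0 to 13 bases between them. A half-site was found in 3 of the 16 windows, against 6.63% of the 35116 windows in the table. A full site was found in 1 of the 16, a window of DDB2, against 0.0285% of all windows. The half-sites are in capitals.
DDB2: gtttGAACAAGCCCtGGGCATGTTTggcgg
FAS: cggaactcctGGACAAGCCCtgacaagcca
SESN1: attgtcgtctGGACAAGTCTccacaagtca
The DDB2 stretch lies at chr11:47214975-47215004 on the plus strand, with its motifs from base 6 to base 26 after one of 2 annotated starts, separated by 1 base. The FAS stretch lies at chr10:88991299-88991328 on the plus strand, and the SESN1 stretch at chr6:109009018-109009047 on the minus strand, where the motifs end 113 and 40 bases before a start. 

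For comparison, the 250 bases before the start of TP53I3 and of CDKN1A are given, both without a match and so without capitals. TP53I3 rose with the decoy and CDKN1A did not pass the test. Whether a match goes with a change on the arrays was not tested. The TP53I3 stretch is chr2:24084835-24085084 on the minus strand and the CDKN1A stretch chr6:36678464-36678713 on the plus strand. The windows of TRIAP1, MDM2 and GDF15 held no match either.
TP53I3: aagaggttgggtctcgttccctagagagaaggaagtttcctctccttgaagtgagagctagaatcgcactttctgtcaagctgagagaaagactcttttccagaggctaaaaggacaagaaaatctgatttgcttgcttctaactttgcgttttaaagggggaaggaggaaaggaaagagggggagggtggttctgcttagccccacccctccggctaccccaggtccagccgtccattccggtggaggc
CDKN1A: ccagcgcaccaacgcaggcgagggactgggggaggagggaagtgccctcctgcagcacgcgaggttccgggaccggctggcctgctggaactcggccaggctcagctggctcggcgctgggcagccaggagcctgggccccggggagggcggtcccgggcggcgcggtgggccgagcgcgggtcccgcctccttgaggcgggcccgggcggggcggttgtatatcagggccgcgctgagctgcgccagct
These are matches of letters in the reference sequence, not binding sites measured in these cells. Only exact matches within these windows were searched. A gene without a match may thus have a site elsewhere, or one that departs from the consensus. TNFRSF10B and GADD45A had no window and were not searched.

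The arrays contrast cells given added sRSE copies, which can occupy a factor that binds this element, with cells given RNA of shuffled sequence. Among the 5 measured p53 targets the values went in both directions, as they did among all detected probes. The death receptor TNFRSF10B and the small mitochondrial protein TRIAP1 fell with the decoy, the damage sensor DDB2 and the oxidoreductase TP53I3 rose, and the cell cycle inhibitor CDKN1A did not pass. In all, 4 of the 5 measured genes were called, meaning a Benjamini-Hochberg adjusted p from limma under 0.05 over all probes tested, 2 higher and 2 lower. Of all 13889 detected probes 43.3% were called, 21.4% higher and 21.9% lower, and of all 6480 genes, by their brightest detected probe, 42.3%. The balance of directions depends on the scaling, with 2841 probes higher and 4096 lower under median scaling and 3212 higher and 2758 lower under cyclic loess, against 2973 higher and 3045 lower here. In 4 of the 5 genes the normalized signals of the groups did not overlap, as in 74.2% of all detected probes. DDB2 was above background in the decoy arrays alone, so it entered the test through the group in which it is high, and the members' count is no support for a change of the group as a whole. The median log2 fold change was 0.0078 over the 5 genes and -0.021 over all detected probes.

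**Figure D1:**
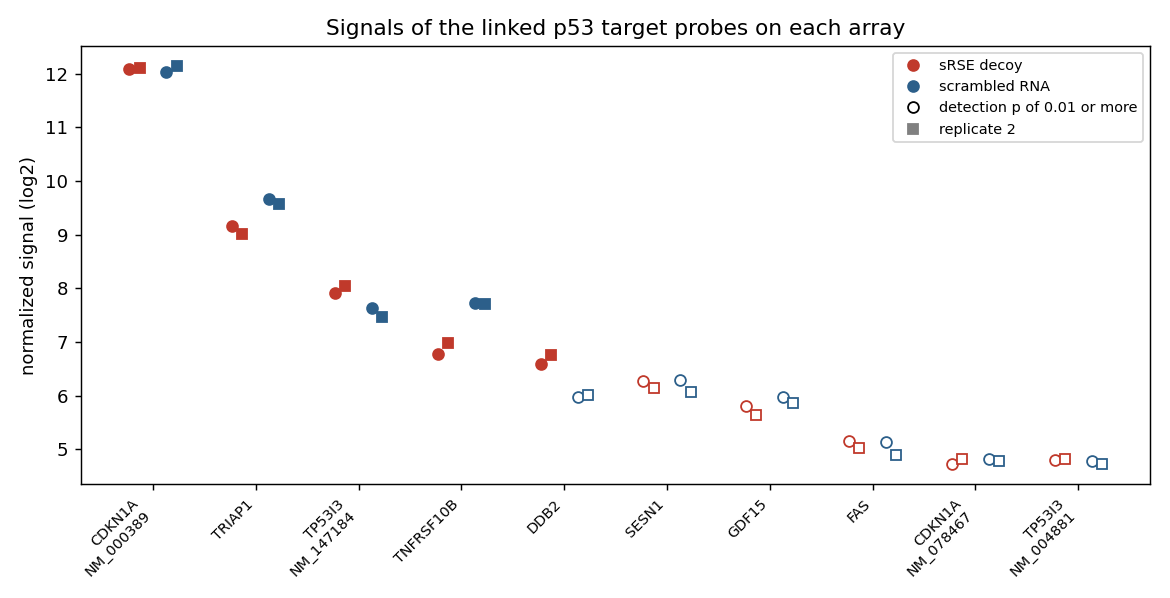
Normalized log2 signal (vertical axis) of each linked p53 target probe (horizontal axis) on the 2 sRSE decoy arrays, left of each pair, and the 2 scrambled RNA arrays, right; filled points have a detection p-value under 0.01, and circles and squares are replicates 1 and 2. TNFRSF10B and TRIAP1 lie lower in both decoy arrays, TP53I3 and DDB2 higher, CDKN1A overlaps, and 5 probes were above background on no array.

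TNFRSF10B encodes the death receptor DR5, which binds the ligand TRAIL at the cell surface and starts apoptosis. Its raw signal was 186.1 and 190.6 in the decoy arrays, against 242.7 and 224.6 in the scrambled RNA arrays. After background correction and quantile normalization the log2 signals were 6.78 and 6.99 with the decoy and 7.73 and 7.72 with scrambled RNA. Both decoy arrays were thus below both scrambled RNA arrays, and the groups did not overlap on either scale. The fall was 1.79-fold, a log2 fold change of -0.84 ± 0.10 (SE, n = 2 arrays per group; 95% interval -1.07 to -0.60; limma adjusted p = 9.39e-04). A change of this size or less was seen in 96.2% of all detected probes. In such bulk RNA, fewer expressing cells and less RNA per cell cannot be told apart. The probe was linked to accession NM_147187, and the authors' deposited table lists that accession at a log10 ratio of -0.0259, percentile 0.5 of all its accessions. That ratio comes from these same arrays and was used to link the probe, so it is no second measurement. The deposited table lists a second TNFRSF10B accession, NM_003842, at 4.48e-04, percentile 56.2. That accession could not be linked to a probe, so which probes stand behind the second value is not known here, and the fall is that of 1 probe.

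TRIAP1 encodes a small protein of the mitochondrial intermembrane space that carries phosphatidic acid together with PRELID1 and is known to inhibit apoptosis. Its raw signal was 709.8 and 591.9 with the decoy, against 827.2 and 707.1 with scrambled RNA, so on the raw scale the higher decoy array lay just above the lower scrambled RNA array. After normalization the log2 signals were 9.16 and 9.02 with the decoy and 9.67 and 9.56 with scrambled RNA, and the groups no longer overlapped. TRIAP1 fell by 0.53 ± 0.10 on the log2 scale, a 1.44-fold fall (± SE, 2 arrays a group, limma adjusted p = 0.00441). The authors' deposited table lists TRIAP1 at a log10 ratio of -0.0214, percentile 1.0. The probe was linked by that ratio, which comes from the same arrays, so it adds no support. TNFRSF10B, which promotes cell death, and TRIAP1, which opposes it, were both lower with the decoy.

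DDB2 encodes the subunit of a DNA damage-binding complex that recognises ultraviolet lesions for nucleotide excision repair, and it is the member whose promoter letters held the full site given above. Its raw signal was 168.7 and 170.1 in the decoy arrays, against 107.0 and 105.4 in the scrambled RNA arrays. The normalized log2 signals were 6.58 and 6.76 with the decoy, against 5.97 and 6.02 with scrambled RNA. With detection p-values of 0.0195 and 0.0208, DDB2 was not well above background with scrambled RNA, while the decoy arrays passed narrowly at 0.00909 and 0.00649. Its signal was therefore at least 1.17-fold higher with the decoy, a bound that was not itself tested. For this bound, DDB2's signal on each scrambled RNA array was replaced by the lowest signal of any probe above background wherever that was higher. The fitted log2 difference of 0.67 ± 0.10 (± SE, 2 arrays a group) is no measured size. An adjusted p of 0.0018 from limma belongs to that fit and not to the bound. DDB2 entered the fit through the decoy arrays alone, so this p adds no support. The fitted difference was 0.42 without background correction and 0.42 on the authors' normalized intensities.

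TP53I3, also known as PIG3, encodes an oxidoreductase resembling quinone reductases that was first described as an early transcript of p53-driven apoptosis. The probe linked to NM_147184 read a raw signal of 340.9 and 335.8 with the decoy, against 232.1 and 197.8 with scrambled RNA. Its normalized log2 signals were 7.91 and 8.05 with the decoy and 7.64 and 7.46 with scrambled RNA, without overlap. TP53I3 rose by 0.43 ± 0.10 on the log2 scale, 1.34-fold (± SE, 2 arrays a group, limma adjusted p = 0.0128). Its call was lost when sRSE decoy replicate 2 (0.36) or scrambled RNA replicate 2 (0.34) was left out, and without a detection filter. The probe linked to another TP53I3 accession, NM_004881, was above background on 0 arrays, at raw signals of 57.6 and 59.2 with the decoy and 54.9 and 50.2 with scrambled RNA.

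CDKN1A encodes p21, which inhibits cyclin-dependent kinases and is the target through which p53 halts the cell cycle. The probe linked to NM_000389 read a raw signal of 4794.8 and 4324.3 with the decoy, against 4275.6 and 4219.2 with scrambled RNA. The normalized log2 signals were 12.09 and 12.10 with the decoy and 12.03 and 12.14 with scrambled RNA, so both decoy arrays lay between the scrambled RNA arrays, although both had been above them on the raw scale. The log2 fold change was 0.0078 ± 0.090 (± SE, 2 arrays a group, limma adjusted p = 0.952), with a 95% interval of -0.20 to 0.22. These arrays therefore do not exclude a difference within that interval, in either direction. When arrays were scaled to their medians instead of quantile normalized, the value became -0.22, which did not pass (limma adjusted p = 0.0775). The probe of another CDKN1A accession, NM_078467, was above background on 0 arrays.

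**Figure D2:**
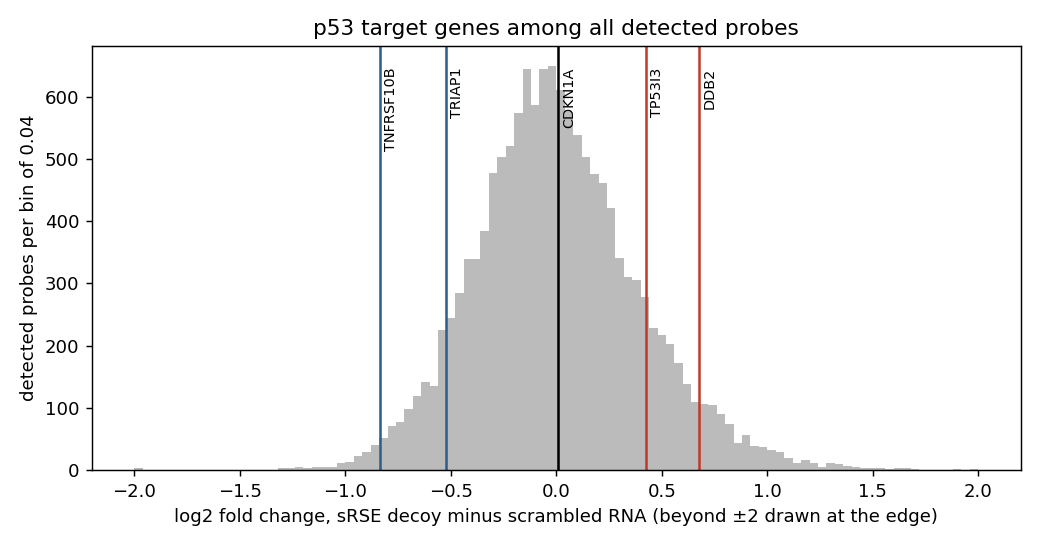
Number of detected probes (vertical axis) by log2 fold change of sRSE decoy minus scrambled RNA (horizontal axis, bins of 0.04), with a line at each measured p53 target gene, red where it was called higher, blue where lower and black where not called. TNFRSF10B at -0.84 and DDB2 at 0.67 lie towards the tails, and CDKN1A at 0.0078 lies at the centre. The DDB2 line is the fitted value, which is no measured size, since DDB2 was not above background with scrambled RNA.

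The remaining linked members, FAS, GDF15 and SESN1, were above background on 0 of 4 arrays, so they were not tested and have no fold change. FAS, the receptor of Fas ligand, read raw signals of 81.6 and 72.6 with the decoy, against 75.1 and 61.8 with scrambled RNA. GDF15, a secreted stress cytokine of the TGF-beta family, read 119.1 and 103.2 with the decoy, against 107.4 and 99.6 with scrambled RNA. SESN1, a sestrin that restrains mTORC1 signalling, read 146.7 and 128.4 with the decoy, against 120.7 and 107.3 with scrambled RNA, the nearest of these to passing, with detection p-values from 0.0117 to 0.0208. The groups overlapped on the raw scale in all of these except SESN1, while on the normalized scale SESN1 and FAS overlapped and GDF15 was lower in both decoy arrays. A signal below the detection limit of 1 probe does not show that the transcript is missing, since other transcript forms may not carry the probed stretch.

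For MDM2, and for GADD45A, which binds PCNA and acts in DNA repair and stress signalling, the authors' deposited table is the source used. It lists MDM2 at a log10 ratio of 0.00152, percentile 64.7 of 39747 accessions, and GADD45A at -0.00193, percentile 36.3. The same table lists DDB2 at 0.0149 (percentile 96.3) and CDKN1A at 2.78e-04 (percentile 54.8, accession NM_000389). These values have no error. They are on another scale than the log2 fold changes, since the ratio was taken of signals already put on a log-like scale. DDB2 and CDKN1A were linked to their probes by these ratios, so for them the ratios are no second measurement.

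Among regulators of p53 11 genes were measured, of which 2 rose, 2 fell and 7 did not pass. Of all 6480 genes 42.3% were called, and the median log2 fold change of all detected probes was -0.021. Beside that share, the counts of this and the following lists are not read as results about those lists. MDM4, which binds and restrains p53, was above background on 0 arrays. Array signals give transcripts and not protein levels. The median log2 fold change of the 11 was 0.18. The deubiquitinase USP7, which stabilises both MDM2 and p53, rose by 0.40 ± 0.09, and PPP1R13L, the inhibitory ASPP protein, rose by 0.48 ± 0.09 (± SE, 2 arrays a group, limma adjusted p = 0.00803 and 0.00579). After normalization the kinase HIPK2, which phosphorylates p53, fell by 0.39 ± 0.09 (limma adjusted p = 0.0128). PPP1R13B, an ASPP protein that stimulates p53 at apoptosis genes, fell by 0.36 ± 0.10 (limma adjusted p = 0.0251). On the raw scale the groups overlapped for both genes. HIPK2 read 633.6 and 550.3 with the decoy, against 632.3 and 627.2 with scrambled RNA. PPP1R13B read 197.7 and 186 with the decoy, against 202.6 and 169.8 with scrambled RNA. The HIPK2 call was lost with sRSE decoy replicate 2 (-0.35) or scrambled RNA replicate 2 (-0.32) left out. Without a detection filter, which adds tests, the calls of HIPK2, PPP1R13B, APAF1, CD82, GADD45B, TP53INP2, AIFM1 and NPRL3 were all lost. PPP1R13B did not pass without either decoy replicate (-0.34 and -0.37) or without scrambled RNA replicate 1 (-0.25). The checkpoint kinase CHEK1, at 0.18 ± 0.09, and the acetyltransferase EP300, at 0.19 ± 0.09, did not pass, although EP300 did when arrays were scaled to their medians (0.25, limma adjusted p = 0.0478). The ASPP protein TP53BP2 read 0.19 ± 0.09 by its brighter probe, which did not pass (limma adjusted p = 0.123), while its other probe was not above background with the decoy and at least 1.63-fold lower there. That probe entered the test through the scrambled RNA arrays alone, so its difference supports nothing further.

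Other genes, listed by name as p53 targets, were grouped by function. Whether p53 controls each of them was not checked here. Of 5 measured genes of cell cycle arrest and quiescence, 1 rose and 4 missed the threshold. The median was 0.021. The 1 that rose was the phosphatase CDC25C, which p53 is known to repress and which drives entry into mitosis, at 0.43 ± 0.09 (± SE, 2 arrays a group, limma adjusted p = 0.00597). Of 6 measured genes of apoptosis, 0 rose, 1 fell and 5 missed the threshold. The median was -0.017. APAF1, the core of the apoptosome, fell by 0.28 ± 0.09 (limma adjusted p = 0.0423) but did not pass with any 1 of the 4 arrays left out (-0.21 to -0.35). The raw APAF1 signals overlapped, at 732.9 and 613.3 with the decoy, against 716.8 and 635.3 with scrambled RNA. Of the other TRAIL receptors, TNFRSF10A, the death receptor DR4, read -0.039 ± 0.12 and the decoy receptor TNFRSF10D 0.29 ± 0.14, and neither passed. TNFRSF10C was above background on 1 array and was not tested. TNFRSF10D ranged from 0.070 without sRSE decoy replicate 2 to 0.51 without sRSE decoy replicate 1, where it passed (limma adjusted p = 0.024). Whether the receptors differ from TNFRSF10B or from each other was not tested.

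Of 14 measured genes listed under DNA repair, metabolism, redox control and signalling, 4 rose, 2 fell and 8 missed the threshold. The median was 0.083. The keratin KRT8 rose by 0.41 ± 0.09, the stress sensor GADD45B by 0.36 ± 0.09 and the tetraspanin CD82 by 0.44 ± 0.11 (± SE, 2 arrays a group, limma adjusted p = 0.00817, 0.0123 and 0.0146). The autophagy factor TP53INP2 rose by 0.30 ± 0.10 (limma adjusted p = 0.0475). The receptor NOTCH1 fell by 0.58 ± 0.09 and PPM1D, the phosphatase WIP1 that switches off p53 signalling, fell by 0.55 ± 0.09 (limma adjusted p = 0.00244 and 0.00261). PPM1D read log2 signals of 8.09 and 8.12 with the decoy and 8.62 and 8.68 with scrambled RNA, without overlap. KRT8 did not pass without sRSE decoy replicate 1 (0.37), GADD45B without decoy replicate 1 (0.37) or 2 (0.35), and CD82 without decoy replicate 2 (0.33) or scrambled RNA replicate 1 (0.37). TP53INP2 did not pass without decoy replicate 1 (0.28) or 2 (0.33) or without scrambled RNA replicate 2 (0.19). The xeroderma gene XPC, which acts with DDB2 in lesion recognition, read -0.016 ± 0.087 and did not pass. For IGFBP3, a binding protein of insulin-like growth factors, the brighter probe read 0.057 and did not pass, while the dimmer one rose by 0.51 (limma adjusted p = 0.00711), and for CD82 the dimmer probe rose by 0.98 (limma adjusted p = 0.00337).

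**Figure D3:**
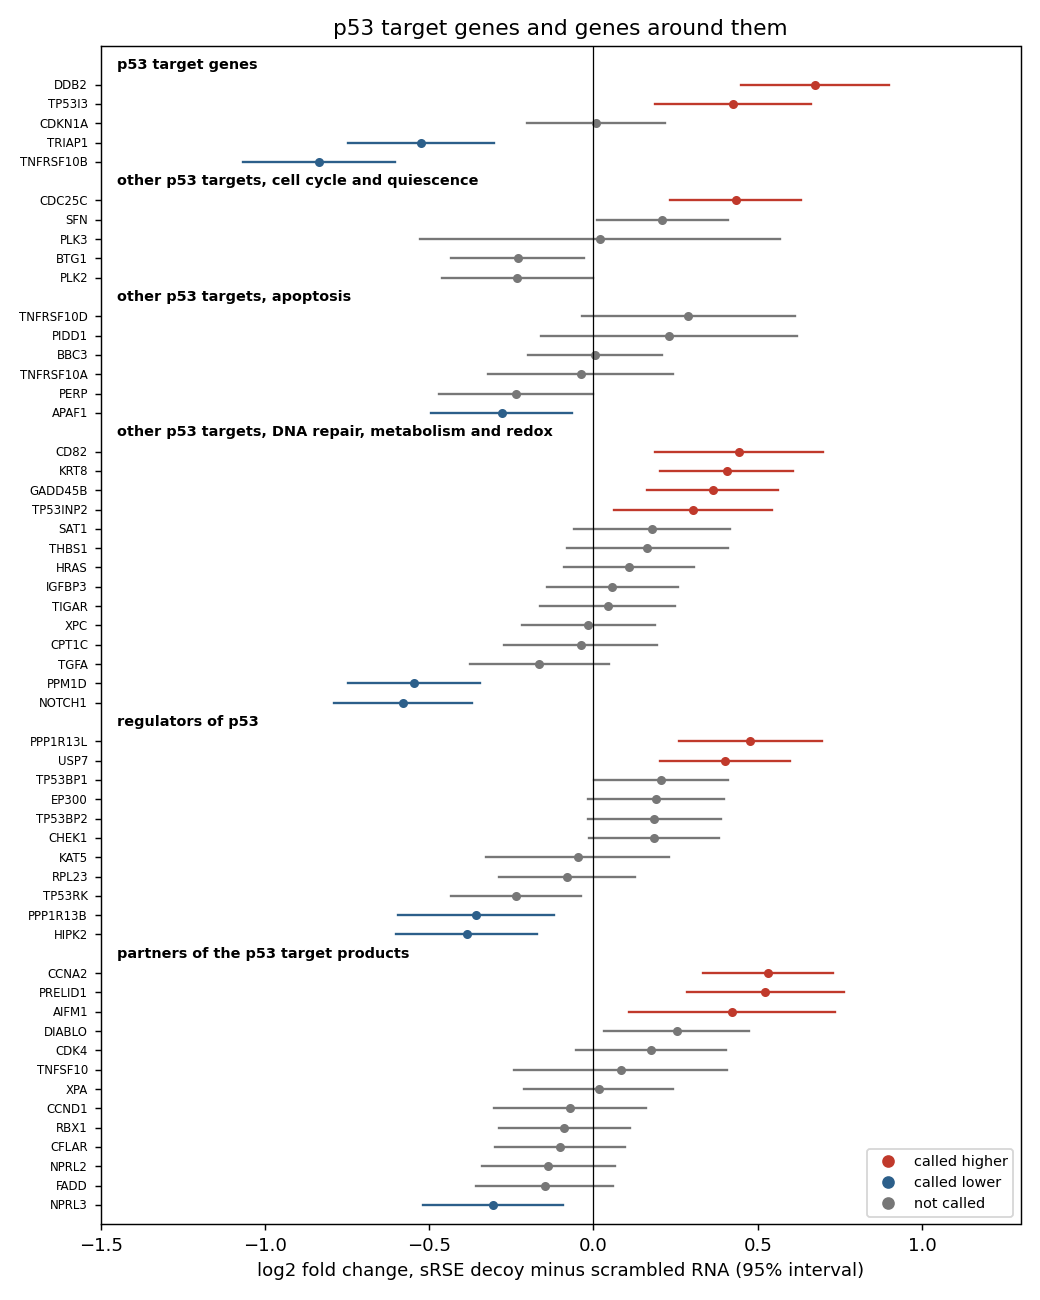
Log2 fold change of sRSE decoy minus scrambled RNA (horizontal axis) with its 95% interval from limma, for each measured p53 target gene and for the genes of 5 related lists (rows), by the brightest detected probe. Members, regulators, partners and the repair and metabolism list each hold both red (called higher) and blue (called lower) points, such as PPP1R13L at 0.48 and HIPK2 at -0.39.

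The proteins that act beside the members were set next to them. Of 13 measured partners, 3 rose, 1 fell and 9 missed the threshold. The median was 0.016. PRELID1, which binds TRIAP1, rose where TRIAP1 fell, at log2 signals of 11.16 and 10.95 with the decoy and 10.57 and 10.48 with scrambled RNA, a rise of 0.52 ± 0.10 (± SE, 2 arrays a group, limma adjusted p = 0.00591). CCNA2, cyclin A2, whose kinase complex p21 inhibits, rose by 0.53 ± 0.09 (limma adjusted p = 0.00265), while cyclin D1, CCND1, read -0.072 ± 0.10 and did not pass, but fell by 0.37 under median scaling (limma adjusted p = 0.0143). The mitochondrial factor AIFM1 rose by 0.42 ± 0.13 (limma adjusted p = 0.0374), but did not pass without either decoy replicate (0.46 and 0.39) or scrambled RNA replicate 1 (0.22). NPRL3, a subunit of the GATOR1 complex on the mTORC1 pathway that sestrins act on, fell by 0.31 ± 0.09 (limma adjusted p = 0.0295), but not past the threshold without either decoy replicate (-0.28 and -0.33) or scrambled RNA replicate 2 (-0.24). Of the genes that act with TNFRSF10B, the ligand TNFSF10 read 0.083 ± 0.14, the adaptor FADD -0.15 ± 0.09 and the inhibitor CFLAR -0.10 ± 0.09, and none of these 3 passed. Under median scaling FADD did, at -0.33 (limma adjusted p = 0.0173), and TNFSF10 turned to -0.14 without scrambled RNA replicate 2 and was 0.30 without scrambled RNA replicate 1, neither past the threshold.

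**Figure D4:**
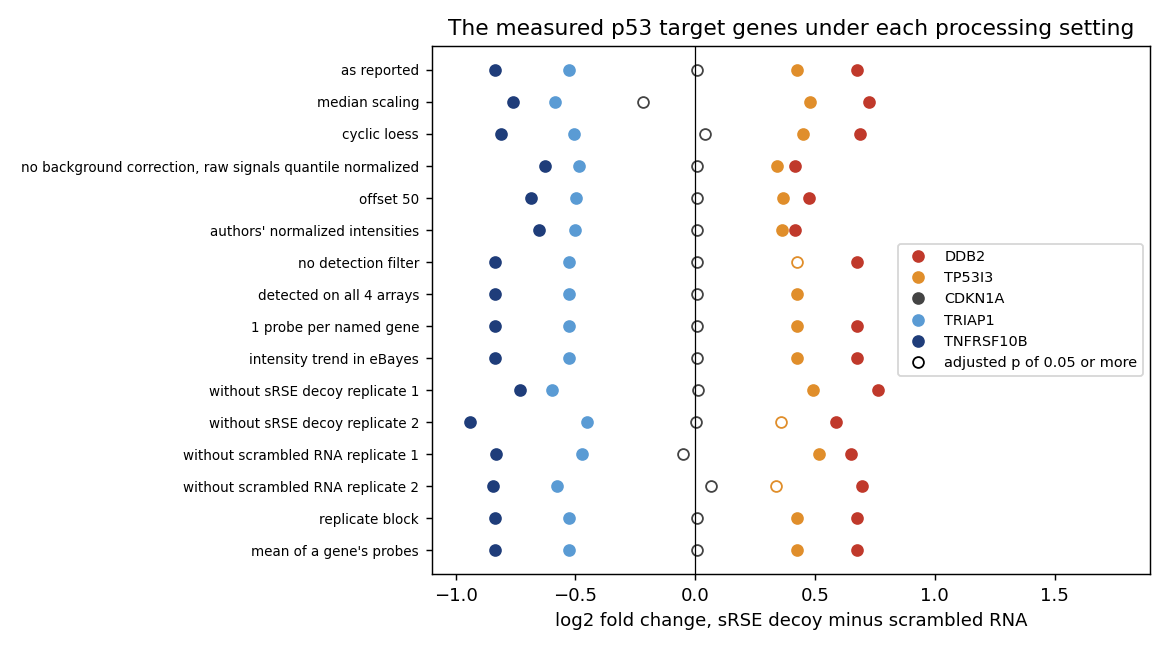
Log2 fold change of sRSE decoy minus scrambled RNA (horizontal axis) of the 5 measured p53 target genes under each processing setting (rows); open points have an adjusted p of 0.05 or more. TNFRSF10B and TRIAP1 stay filled and on 1 side of 0. DDB2 does so wherever it was fitted, but it entered through the decoy arrays alone, so this is no sign of stability. TP53I3 is open in 3 settings, and CDKN1A is open throughout and ranges from -0.22 to 0.068.

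Across the series, 13402 and 13512 probes were above background in the decoy arrays and 13449 and 13849 in the scrambled RNA arrays, with median raw signals of 83.9 and 81.3 against 77.5 and 76.3. Log2 signals correlated at r = 0.996 within the decoy group, at r = 0.995 within scrambled RNA and at r = 0.9747 to 0.9753 between the groups (Pearson, across probes, which are not independent replicates). Of the markers of a mesenchymal-like carcinoma line, ANXA1, CD44, LGALS1 and KRT8 were above background, and KRT18 was on 0 arrays by either of its 2 probes. None of 4 luminal markers linked to a probe (ESR1, PGR, GATA3, CDH1), of 3 blood markers or of 2 fibroblast markers was. Of 2 endothelial markers VWF was not above background, and PECAM1 was, at raw signals of 271.8 and 264.0 with the decoy, against 165.8 and 128.8 with scrambled RNA (log2 fold change 0.78 ± 0.14, SE over 2 arrays a group, limma adjusted p = 0.00425). Its part in the results was not tested.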

How the data were processed

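The authors deposited raw intensities, the mean bead signal of 47323 probes per array without background subtraction, and a detection p-value beside each, per the file headers. On 1 decoy array, 3 detection cells held the signal again and took the p-values of probes of like signal. The authors also deposited normalized intensities, and the submitters' processing notes name lumi without its role (version: not given in the sources used here). Another table the authors deposited holds a log10 ratio per transcript accession, whose header calls it a log fold change without its base. The base was inferred from its fit to the normalized intensities.

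No table used here pairs probes with genes. Accessions were linked by recomputing that ratio for every probe with 3 fitted constants and keeping pairs that were unique within 6e-10. This linked 32471 of 39747 accessions, where shifted tables gave 117 links by chance on average (0.36%), and every gene measured on the arrays rests on this join. Names come from RefSeq, assembly GRCh38.p14.

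Intensities were corrected by normexp, its background estimated through the detection p-values (neqc, offset 16), quantile normalized and converted to log2 (limma 3.58.1, R 4.3.3). A linear model of group alone was fitted by lmFit and moderated by eBayes, and p-values were adjusted by Benjamini-Hochberg over all 13889 detected probes. Errors are standard errors of the fit. A gene was read by its brightest detected probe. The fit was also run on simulated data, in which every probe had the same spread. The arrays do not have that property, so no conclusion is drawn from the simulation. The small number of arrays limits the precision.

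The members and the other lists were chosen with earlier results of these data known. Some genes of the lists are not reported here. Named are all members, MDM4, and of each other list up to 4 called genes per direction with the smallest p, beside further genes named after their values were seen.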

Additional observations from a re-analysis of the deposited data

How the results depend on the processing

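Signals of FAS, GDF15 and SESN1 were too close to background to be tested. TNFRSF10B (-0.63 to -0.94) and TRIAP1 (-0.45 to -0.60) kept direction and call in each alternative. The fitted value of DDB2 ranged from 0.42 to 0.76, but DDB2 entered through the decoy arrays alone, was not tested where detection on all 4 arrays was required, and its call is no sign of stability. TP53I3 did not pass in 3 of its 15 alternatives. Of 20 called genes in the 6 lists, 10 kept their call in every alternative that tested them, and 15 uncalled genes passed in some. TP53BP2 turned from 0.19 by its brightest probe to -0.28 as the mean of its probes. The count of p53 target genes called was 3 to 4 with 1 array left out.

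All probes called numbered 6018, but 3453 without a detection filter, 2886 with 1 probe per named gene, where fewer probes were tested, and 3722 to 5090 with 1 array left out (3748 without sRSE decoy replicate 1 and 3722 without replicate 2). Targets of cell cycle arrest had 2 calls with median scaling, without background correction, with offset 50 and on the authors' intensities, and 3 with an intensity trend in eBayes, against 1. Targets of apoptosis had 2 calls with median scaling, on the authors' intensities and with the trend, 0 without a filter, and 0 to 2 with 1 array left out, against 1. Targets of DNA repair and metabolism had 3 to 5 calls with 1 array left out, against 6. Regulators had 2 calls without a filter and 2 to 3 with 1 array left out, against 4. Partners had 7 calls with median scaling, 2 without a filter and 2 to 4 with 1 array left out, against 4. The cause of these shifts was not tested. With 1 array left out of a group, the lone array is assumed to vary like the others.

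The replicate numbers share only a number. The deviations of same-numbered arrays from their group means correlated at -0.008, and with the replicate number as a block 5935 probes and 4 p53 target genes were called.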
